A study of Mus musculus with 2 samples.

Results

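The Ifit family comprised 5 genes here, Ifit1, Ifit2, Ifit3, Ifit3b and Ifit1bl1, out of 31017 gene symbols in each of the 2 count matrices. The genes were taken by name, and their raw unique molecular identifiers (UMIs) were summed over 7 classes of immune cell in each tumour. The study injected cells of either of 2 mouse mammary tumour lines, PyMT-N and PyMT-M, into the mammary gland, and the tumours were taken after 4 weeks. PyMT stands for polyoma middle T, a viral oncogene used to model breast cancer in mice, and the labels do not say what N and M stand for, nor the mouse strain, the age or any treatment. Living CD45-positive cells, meaning cells of blood origin, were sorted and read with the 10x Genomics 5′ droplet method. Each line gave 1 library, so no difference below has a replicate check and no test was possible. Every interval is a 95% interval of counting error only.

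IFIT proteins are cytoplasmic RNA-binding proteins built from tetratricopeptide repeats, and they limit viral infection. Cells make almost none at rest. When type I interferon binds its receptor, signalling to the nucleus acts on interferon-stimulated response elements in the promoters of these genes, which makes them among the strongest markers that a cell has seen interferon. IFIT1 binds RNA whose 5′ cap lacks the methyl mark of host messages, and in humans IFIT2 and IFIT3 associate with it. Ifit3b is a mouse copy of Ifit3, and Ifit1bl1 a mouse copy related to Ifit1.

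All 5 genes lie within 99.3 kb of chromosome 19 (GRCm38, 34550694 to 34650009, GENCODE annotation). From the left they run Ifit2 (34550694 to 34576419, plus strand), Ifit3 (34583531 to 34588731, plus), Ifit1bl1 (34592891 to 34601956, minus), Ifit3b (34607970 to 34613401, plus) and Ifit1 (34640871 to 34650009, plus). Ifit1bl2 (34617049 to 34640743, minus) lies between Ifit3b and Ifit1 and is not a member. The promoters are shown because the family is known for its answer to interferon and because some members are near-copies of each other. The letters GAAA, any 2 bases and GAAA again, the core of an interferon-stimulated response element, were searched on both strands in the 250 bases before each RefSeq start (GRCm38.p6). Capitals mark each match, with 15 bases on either side, and every match shown lies on the strand opposite to the one printed.
Ifit1, chr19:34640770-34640828, plus strand: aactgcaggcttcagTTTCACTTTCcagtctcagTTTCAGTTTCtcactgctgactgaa
Ifit3, chr19:34583358-34583431, plus strand: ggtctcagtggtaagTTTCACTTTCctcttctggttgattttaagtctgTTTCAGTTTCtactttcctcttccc
Ifit3b, chr19:34607754-34607827, plus strand: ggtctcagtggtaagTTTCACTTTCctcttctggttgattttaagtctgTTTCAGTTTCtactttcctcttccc
Ifit1bl1, chr19:34602048-34602087, minus strand: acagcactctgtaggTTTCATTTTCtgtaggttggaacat
Ifit1, Ifit3 and Ifit3b each held 2 matches, and the Ifit3 and Ifit3b stretches were identical over all 74 bases. Ifit1bl1 held 1 match before each of its 2 listed starts, of which the one before the first start is shown, and Ifit2 held 0 at either of its listed starts. Of 32851 promoter windows of the same length, 978 (2.98%) held the letters at least once and 59 (0.18%) at least 2 times. The 59 bases shown for Ifit1 also stand before Ifit1bl2, which starts 145 bases away and runs the other way, so the same 2 matches lie in both windows. A match describes letters only, and the absence of a match says nothing about binding.

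Near-copies limit which gene a read can name. Of the 90-base stretches of the Ifit3 transcript, 35.1% were also found in Ifit3b, and 30.5% of those of Ifit3b were found in Ifit3. Over the first 500 bases, where a 5′ method reads, the shares were 24.1% and 35.0%. The way such reads were counted is not stated in the labels or headers, so the split between Ifit3 and Ifit3b is uncertain. Ifit1, Ifit2 and Ifit1bl1 shared no such stretch with another member, although 22.1% of stretches in the first 500 bases of Ifit1 were also in Ifit1bl2.

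Barcodes numbered 5020 in PyMT-N (14907736 UMIs, median 1955) and 7476 in PyMT-M (43977988 UMIs, median 5069.5). After filters 4994 PyMT-N and 7357 PyMT-M cells remained, and 60 barcode sequences occurred in both libraries. Each cell was given a class from the UMIs of 7 to 11 marker genes, and cells with mixed markers (4.49% in PyMT-N, 5.25% in PyMT-M) or too few (6.89% and 3.37%) were left out. Neutrophils numbered 3299 in PyMT-N and 49 in PyMT-M, and macrophages 626 and 5327. The other classes held 217 and 159 monocytes, 154 and 545 T cells, 32 and 390 NK cells, 59 and 51 B cells, and 21 and 51 dendritic cells, PyMT-N before PyMT-M. In each class of each tumour all markers, or all but 1, were seen in at least 10% of cells. Between 66.7% and 100% of the cells of a class fell in clusters of the same name, the lowest being PyMT-M monocytes. Class sizes and depth differ between the tumours together with the line and cannot be told apart from it.

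Ifit RNA was lower in the PyMT-N tumour than in the PyMT-M tumour in macrophages, T cells and neutrophils, and was close to level in monocytes. In macrophages the 5 genes together reached 34.6 counts per 1000000 UMIs (CPM; 28.5 to 41.5) in PyMT-N and 291 CPM (285 to 297) in PyMT-M, a log2 ratio of PyMT-N over PyMT-M of -3.04 (-3.35 to -2.81), with 114 and 9067 UMIs. T cells stood at 46.4 CPM (30.6 to 67.5) in PyMT-N and 309 CPM (289 to 331) in PyMT-M, a log2 ratio of -2.71 (-3.35 to -2.19). Neutrophils stood at 132 CPM (124 to 141) in PyMT-N and 513 CPM (371 to 691) in PyMT-M, a log2 ratio of -1.95 (-2.40 to -1.48). The PyMT-M neutrophil value rests on 43 UMIs in 49 cells, of which 19 came from 1 cell with 939 UMIs in all. Without that cell PyMT-M neutrophils stood at 290 CPM and the log2 ratio was -1.12. Log2 ratios carry a pseudocount of 1 CPM.

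Monocytes held 115 CPM (97.1 to 135) in PyMT-N and 145 CPM (122 to 171) in PyMT-M, a log2 ratio of -0.34 whose interval (-0.68 to 0.00) reaches 0. With classes taken from clusters instead of single-cell markers the monocyte ratio was -1.19. NK cells gave 10.7 CPM (1.30 to 38.7) in PyMT-N, from 2 UMIs in 1 cell, and 60.6 CPM (51.7 to 70.6) in PyMT-M, from 165 UMIs in 52 cells. B cells (18.6 CPM in PyMT-N from 2 UMIs, 29.2 CPM in PyMT-M from 3) and dendritic cells (14.6 CPM from 2 UMIs, 34.8 CPM from 13) were too thinly read to compare, and a difference was not detectable at this depth. Because UMIs of the family clump in few cells, the true error is wider than these counting intervals.

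**Figure D1:**
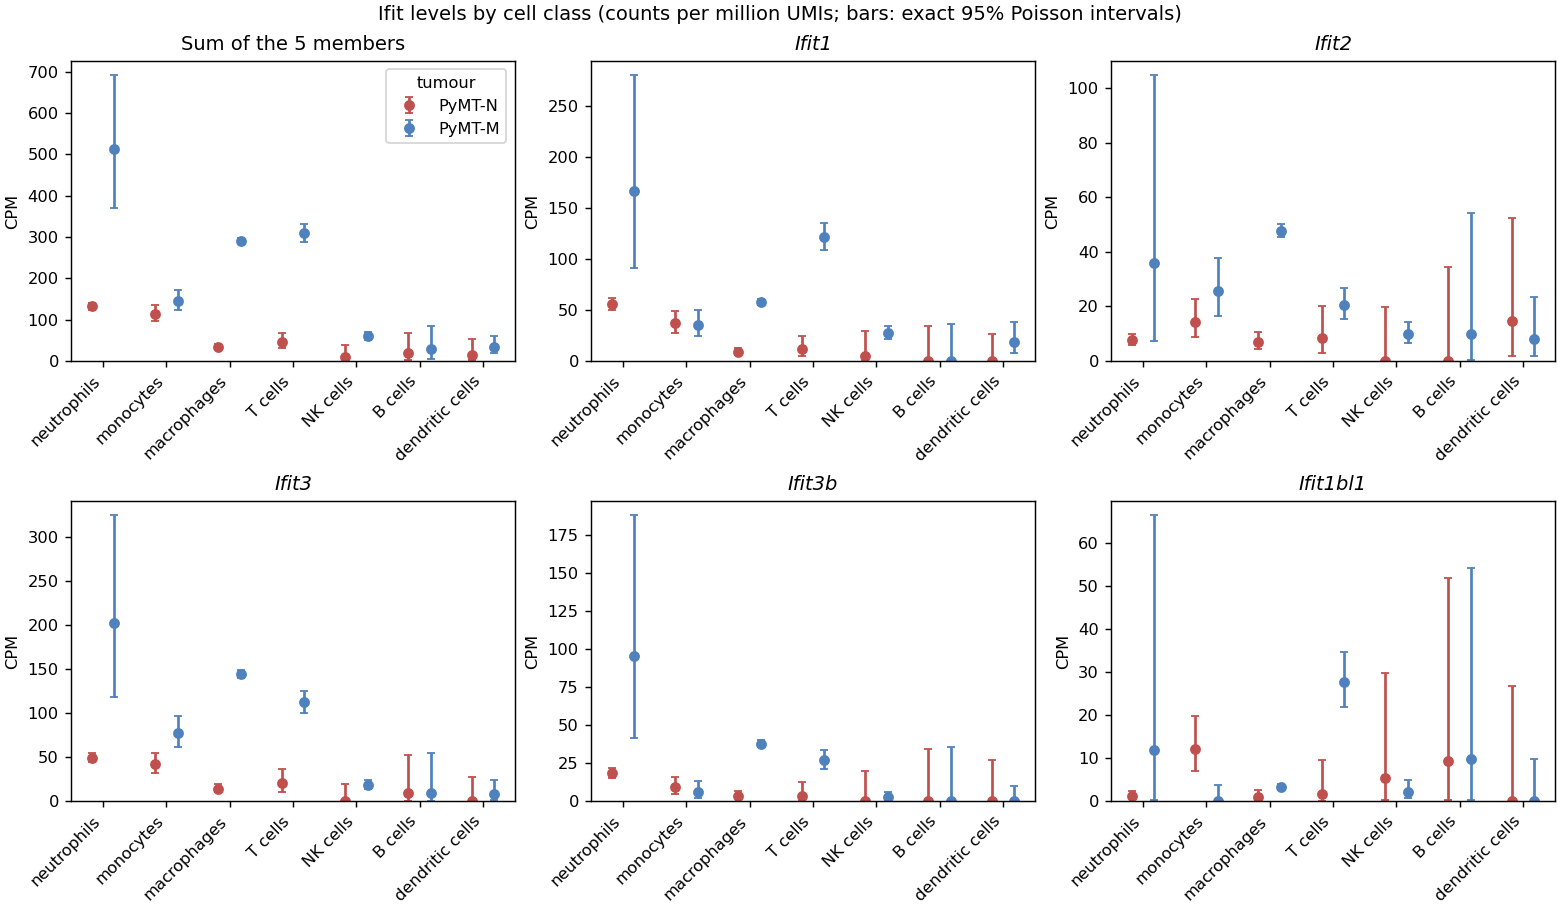
Level of the 5 genes together (first panel) and of each gene, in CPM on linear axes, by cell class, with PyMT-N in red to the left of PyMT-M in blue. Points are class sums of 1 library and bars exact 95% Poisson intervals. In macrophages and T cells the PyMT-M sums (291 and 309 CPM) stand far above the PyMT-N sums (34.6 and 46.4 CPM).

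The order of the classes differed between the tumours. In PyMT-N, neutrophils (132 CPM) and monocytes (115 CPM) led and did not differ beyond counting error (log2 ratio of neutrophils over monocytes 0.21, -0.04 to 0.47). Both exceeded T cells (46.4 CPM) and macrophages (34.6 CPM), which in turn did not differ from each other beyond it (log2 ratio of macrophages over T cells -0.41, -1.04 to 0.24). In PyMT-M, neutrophils (513 CPM) came first, then T cells (309 CPM) and macrophages (291 CPM), which did not differ beyond counting error (log2 ratio of macrophages over T cells -0.09, -0.19 to 0.02). Monocytes (145 CPM) and NK cells (60.6 CPM) followed. The lead of PyMT-M neutrophils ended without the 1 cell named above, when they stood at 290 CPM.

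Ifit1, which encodes the cap-sensing member, stood at 8.80 CPM in PyMT-N macrophages and 57.8 CPM in PyMT-M macrophages, a log2 ratio of -2.59 (-3.30 to -2.19). Among classes with at least 20 Ifit1 UMIs the widest gap was in T cells, with 12 CPM (7 UMIs) in PyMT-N and 122 CPM (334 UMIs) in PyMT-M, a log2 ratio of -3.24 (-4.67 to -2.28). Neutrophils carried 55.9 CPM of Ifit1 in PyMT-N, against 167 CPM in PyMT-M (log2 ratio -1.56, or -0.94 without the top PyMT-M cell). Monocytes were nearly equal, at 37.2 CPM in PyMT-N, against 35.8 CPM in PyMT-M.

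Ifit3, whose human protein associates with IFIT1 and IFIT2, was the most abundant member in PyMT-M macrophages. It reached 14.3 CPM (47 UMIs) in PyMT-N macrophages and 145 CPM (4504 UMIs) in PyMT-M macrophages, a log2 ratio of -3.25 (-3.79 to -2.93). T cells held 20.6 CPM in PyMT-N, against 112 CPM in PyMT-M, with a log2 ratio of -2.39 (-3.41 to -1.62). In neutrophils Ifit3 stood at 49.3 CPM in PyMT-N, against 203 CPM in PyMT-M (log2 ratio -2.02, or -0.96 without the top PyMT-M cell). Ifit3 was the measured member whose monocyte interval lay below 0, at 41.8 CPM in PyMT-N, against 77.7 CPM in PyMT-M (log2 ratio -0.88, -1.42 to -0.38). Its copy Ifit3b showed 3.64 CPM in PyMT-N, against 37.8 CPM in PyMT-M macrophages, 18.4 and 95.4 CPM in neutrophils, and 3.44 and 27.0 CPM in T cells, PyMT-N before PyMT-M.

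Ifit2, whose human protein has been tied to cell death as well as to viral RNA, was also lower in PyMT-N macrophages, at levels below those of Ifit1 and Ifit3. Macrophages held 6.98 CPM of it in PyMT-N, against 47.7 CPM in PyMT-M, a log2 ratio of -2.61 (-3.43 to -2.18). In neutrophils it stood at 7.66 CPM in PyMT-N, against 35.8 CPM in PyMT-M, where the PyMT-M value rests on 3 UMIs, so the interval of the log2 ratio (-3.85 to 0.10) includes 0. T cells held 8.59 CPM in PyMT-N, against 20.4 CPM in PyMT-M (log2 ratio -1.16, -2.93 to 0.06).

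Ifit1bl1 had the fewest UMIs of the 5 members in macrophages and in neutrophils of both tumours. T cells held 1.72 CPM (1 UMI) in PyMT-N and 27.7 CPM (76 UMIs in 63 cells) in PyMT-M, a log2 ratio of -3.40 (-9.34 to -1.49). Macrophages held 0.91 CPM (3 UMIs in 1 cell) in PyMT-N and 3.28 CPM (102 UMIs in 87 cells) in PyMT-M. Monocytes showed the opposite order for Ifit1bl1, with 12.2 CPM (16 UMIs in 5 cells) in PyMT-N and 0 UMIs in PyMT-M. Set against a floor of 3 UMIs over the class in PyMT-M, the PyMT-N monocyte level was 3.96-fold higher. That value leaves out the counting error of the PyMT-N level, and the low end of the log2 ratio interval was 1.52. A single cell of the 5 held 8 of the 16 UMIs, and without it the level was 1.99-fold above the floor. Ifit3b in monocytes had 12 UMIs in PyMT-N (9.11 CPM) and 6 in PyMT-M (6.13 CPM), and the interval of its log2 ratio of 0.50 (-0.95 to 2.27) includes 0.

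Members that differed by 2-fold or more were then counted and set beside the share of all genes that did so. A gene counted as measured with at least 20 UMIs over both libraries. In macrophages 0 of 5 measured members passed 2-fold towards PyMT-N and 5 of 5 towards PyMT-M, beside 3.33% and 8.82% of 11960 genes. T cells gave 0 of 5 towards PyMT-N and 5 of 5 towards PyMT-M, beside 4.61% and 10.3% of 8336 genes. Neutrophils gave 0 of 4 towards PyMT-N and 4 of 4 towards PyMT-M, beside 33.5% and 14.1% of 8653 genes. The PyMT-M count was 1 of 4 without the top PyMT-M cell and 3 of 4 without the top cell of each library. In the 49 PyMT-M neutrophils 3 UMIs already stood at 35.8 CPM, so a low gene could pass 2-fold in either direction on 0 or 1 UMI there. The 33.5% and 14.1% include such genes. Monocytes gave 0 of 3 towards either tumour, beside 2.96% towards PyMT-N and 4.87% towards PyMT-M of 7069 genes. Without the PyMT-N monocyte that held the most family UMIs, 2 of 3 passed 2-fold towards PyMT-M. With the top cell of each library left out, or only that of PyMT-M, 0 of 3 monocyte members passed towards either tumour. NK cells gave 0 of 3 towards PyMT-N and 3 of 3 towards PyMT-M, beside 6.1% and 20% of 7880 genes, yet 2 of those 3 had 0 UMIs in PyMT-N, whose 32 cells set a floor of 16.1 CPM. Of these 2, Ifit3 in PyMT-M stood 1.12-fold above that floor, a value that leaves out the counting error of the PyMT-M level. The interval of its log2 ratio includes 0, so equal Ifit3 levels in the 2 tumours were not excluded. Without the PyMT-M cell holding the most Ifit3, its PyMT-M level (14.7 CPM) lay under the floor. Ifit2 (9.92 CPM in PyMT-M) lay under the floor with all cells. In B cells and dendritic cells 0 members were measured. Of 1290 genes measured in B cells 6.05% passed 2-fold towards PyMT-N and 9.92% towards PyMT-M, and of 3005 genes in dendritic cells 5.89% and 11.1%.

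**Figure D2:**
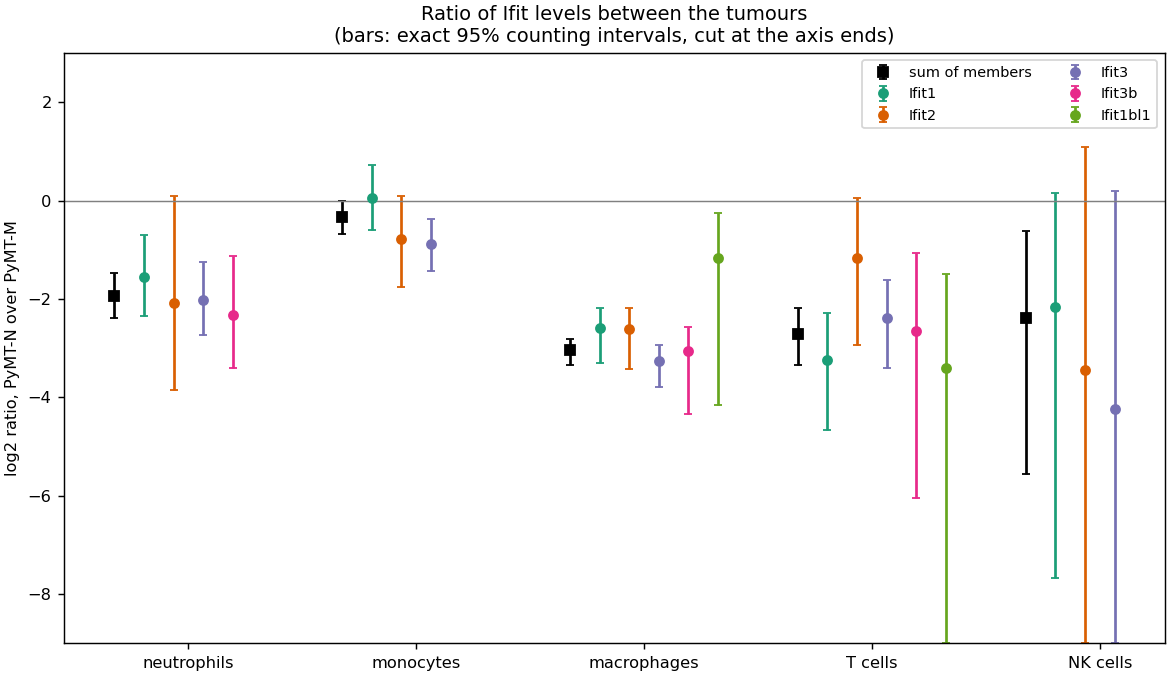
Log2 ratio of PyMT-N over PyMT-M for the sum of the members (black squares) and for each measured member (coloured circles) in 5 classes, with exact 95% counting intervals cut at the axis ends. All points lie below 0 in macrophages, T cells, neutrophils and NK cells, and in monocytes Ifit1 lies at 0.06. The NK points of Ifit2 and Ifit3 had 0 UMIs in PyMT-N and depend on the pseudocount.

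The share of cells with any Ifit UMI was also lower in PyMT-N macrophages and T cells. To set cells of unlike depth side by side, each cell was thinned to 1000 UMIs and shallower cells were left out (181 PyMT-N and 5 PyMT-M neutrophils, 35 and 234 macrophages, 4 and 1 T cells). Then 1.86% (0.933 to 3.31%) of PyMT-N macrophages and 15.5% (14.5 to 16.6%) of PyMT-M macrophages held an Ifit UMI, and 5.91% and 34.9% did before thinning. T cells gave 5.33% (2.33 to 10.2%) in PyMT-N and 16.9% (13.9 to 20.3%) in PyMT-M, and 7.79% and 35.6% unthinned. Neutrophils gave 4.36% (3.67 to 5.14%) in PyMT-N and 13.6% (5.17 to 27.4%) in PyMT-M, the second from 6 of 44 cells, and 6.88% and 18.4% unthinned.

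Monocyte shares were 4.67% (2.26 to 8.43%) in PyMT-N and 9.43% (5.38 to 15.1%) in PyMT-M, intervals that overlap, and 14.3% and 17.0% unthinned. For NK cells 0 of 32 were positive in PyMT-N, which allows a share of up to 9.38% by a limit of 3 counts (exact upper bound 10.9%), and 4.66% (2.79 to 7.27%) in PyMT-M. B cells, one of the classes with low shares, gave 0 of 54 in PyMT-N, which allows up to 5.56% by the same limit (exact upper bound 6.60%), and 1.96% (0.05 to 10.4%) in PyMT-M, with median depths of 1487 and 1861 UMIs. Since no class here is sure to lack Ifit RNA, these B cell shares are only an upper guide to background from free RNA. The PyMT-N macrophage, monocyte, T cell and neutrophil shares all lie within the limit that 54 B cells can set, so a share alone does not set them apart from background, although the leading PyMT-N neutrophil held 55 Ifit UMIs among 2903. The PyMT-M macrophage and T cell shares lie above the upper end of the PyMT-M B cell interval.

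The RNA of other cells was also gauged from their own markers. C1qa, C1qb and C1qc, complement genes of macrophages, stood in neutrophils at 0.33% of the macrophage level in PyMT-N and 0.52% in PyMT-M. Carried over at that rate, macrophage RNA would bring 0.12 CPM of Ifit to PyMT-N neutrophils and 1.51 CPM to PyMT-M neutrophils, where 132 and 513 CPM were measured. T cells would gain 0.03 CPM in PyMT-N (46.4 CPM measured) and 0.74 CPM in PyMT-M (309 CPM measured). These markers also took part in the class rule, which keeps cells with many of them out of the other classes.

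**Figure D3:**
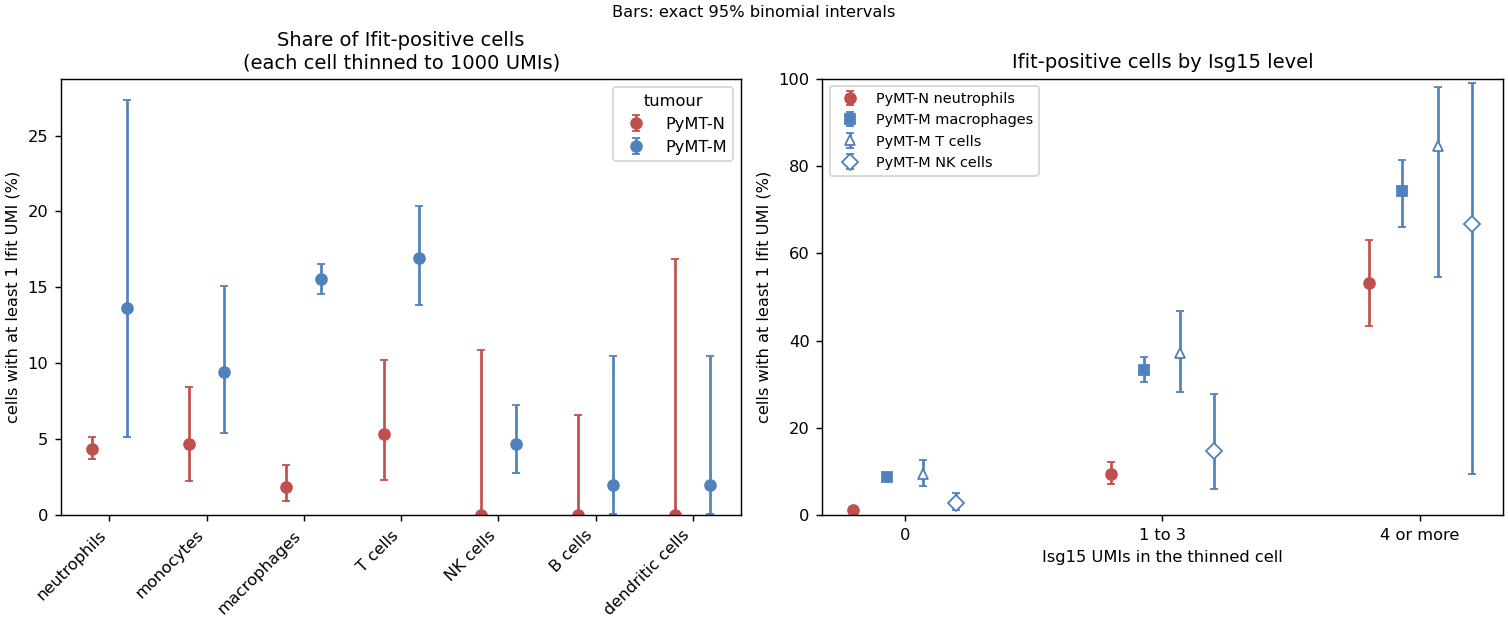
Left, the percentage of cells with at least 1 Ifit UMI after thinning to 1000 UMIs, by class, with PyMT-N in red to the left of PyMT-M in blue. Right, the same percentage by the number of Isg15 UMIs in the thinned cell, for the 4 classes and tumours named in the legend, with bars as exact 95% binomial intervals in both panels. In PyMT-N neutrophils it was 1.10% at 0 Isg15 UMIs and 53.3% at 4 or more.

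Ifit RNA was concentrated in few cells. Of 3299 PyMT-N neutrophils 227 held an Ifit UMI, 97 of them exactly 1, while 19 cells held 10 or more and 4 cells held 55, 55, 38 and 33. In all, 25 cells carried 50% of the 916 UMIs, and 4 of 626 PyMT-N macrophages carried 50% of their 114. After thinning to equal depth the variance over the mean was 7.0 in PyMT-N neutrophils, 3.93 in PyMT-M T cells and 2.90 in PyMT-M macrophages. A value of 1 stands for UMIs scattered over the cells at random. A positive thinned cell held a mean of 2.79 Ifit UMIs among PyMT-N neutrophils and 1.84 among PyMT-M macrophages. PyMT-M macrophages spread their 9067 UMIs over 1857 of 5327 cells, and 197 cells held 50%. In PyMT-N monocytes 110 of 151 UMIs lay in 4 cells, and their level was 115 CPM with and 90.1 CPM without the leading cell.

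The members were found together in the same cells. Among PyMT-N neutrophils Ifit1 was found in 64.1% (54.7 to 72.8%) of the 117 cells with Ifit3 and in 2.83% (2.28 to 3.47%) of those without it, at median depths of 2147 and 1720 UMIs. Among PyMT-M macrophages the same shares were 41.3% (38.6 to 43.9%) of 1345 cells and 5.32% (4.65 to 6.07%), at 6088 and 4684 UMIs. PyMT-M T cells gave 67.9% (58.2 to 76.7%) of 106 cells and 9.34% (6.79 to 12.5%), at 3688 and 4226 UMIs, so there the cells with Ifit3 were not the deeper ones. Ifit2 was found in 14.5% of PyMT-N neutrophils with Ifit3 and 0.22% of those without. Ifit1bl1 was found in 28.3% of PyMT-M T cells with Ifit3 and 7.52% of those without.

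Isg15, the ubiquitin-like modifier that interferon also induces, was the gene most like the family in PyMT-N neutrophils and in PyMT-M macrophages, the groups of cells compared in this way. In thinned PyMT-N neutrophils an Ifit UMI was found in 1.10% of cells with 0 Isg15 UMIs, 9.37% of cells with 1 to 3 and 53.3% of the 107 cells with 4 or more. PyMT-M macrophages gave 8.69%, 33.3% and 74.3% in the same order, and PyMT-M T cells 9.33%, 37.2% and 84.6%, the last from 13 cells. Cells with at least 4 Isg15 UMIs formed 3.43% of PyMT-N neutrophils and 2.67% of PyMT-M macrophages.

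Across 3118 thinned PyMT-N neutrophils the 10 genes with the highest Pearson r against the family, among 2286 genes, were Isg15 (0.50), Slfn4 (0.37), Irf7 (0.37), Isg20, Rtp4, Ifitm3, Slfn1, Ifi27l2a, Oasl2 and Ly6i. Across 5093 thinned PyMT-M macrophages the list, among 2533 genes, included Isg15 (0.47), Cxcl10 (0.43), Irf7 (0.32), Ccl12, Phf11d, Ifi47, Rtp4, Ifitm3 and Tor3a. Isg15, Irf7, Rtp4 and Ifitm3 stood in both lists, and the chemokine genes Cxcl10 and Ccl12 stood in the macrophage list. Counts are sparse, cells of a library share its preparation, and these values describe likeness only.

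Across the 14 points given by 7 classes in 2 tumours, the genes nearest to the family sum were Zfp790 (r = 0.91), Nif3l1, Rtp4 (0.87), Cap1, Bin2, Tmbim6, Rbm18, Cd101, Zfp874b and Lrrc49, among 11332 genes. Of these 10, 1 (Rtp4) belonged to the lists of interferon genes used here. The points share 2 libraries, and several hold few UMIs. Against the sum of the other 4 members over the same points, r was 0.94 for Ifit3b, 0.88 for Ifit3, 0.76 for Ifit1, 0.50 for Ifit2 and 0.21 for Ifit1bl1.

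The mix of members differed between classes. A UMI counts a molecule read at its 5′ end, so no scaling by gene length was made. Ifit1 UMIs were 1.13 times those of Ifit3 in PyMT-N neutrophils (0.98 to 1.32), against 0.62 times in PyMT-N macrophages (0.37 to 1.00). In PyMT-M the ratio was 1.09 in T cells (0.93 to 1.27) and 1.53 in NK cells (1.05 to 2.24), against 0.40 in macrophages (0.38 to 0.42). PyMT-M neutrophils lay between at 0.82 (0.38 to 1.78) and could not be placed. Without the cell holding the most family UMIs, the ratios were 1.07 in PyMT-N neutrophils, 0.51 in PyMT-N macrophages, 1.16 in PyMT-M T cells, 1.52 in PyMT-M NK cells and 0.40 in PyMT-M macrophages.

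For Ifit2 the contrast of PyMT-N neutrophils and PyMT-M T cells with macrophages was reversed. Its UMIs were 0.16 of those of Ifit3 in PyMT-N neutrophils (0.11 to 0.21) and 0.18 in PyMT-M T cells (0.13 to 0.24), against 0.49 in PyMT-N macrophages (0.28 to 0.82) and 0.33 in PyMT-M macrophages (0.31 to 0.35). NK cells of PyMT-M did not follow this reversal, at 0.55 (0.33 to 0.90). T cells of PyMT-N, with 5 Ifit2 and 12 Ifit3 UMIs, stood at 0.42 (0.11 to 1.27) and could not be placed. Ifit1bl1 made up 8.97% (7.13 to 11.1%) of the family's UMIs in PyMT-M T cells and 10.6% (6.18 to 16.6%) in PyMT-N monocytes, against 1.12% (0.918 to 1.36%) in PyMT-M macrophages and 0.873% (0.378 to 1.71%) in PyMT-N neutrophils.

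**Figure D4:**
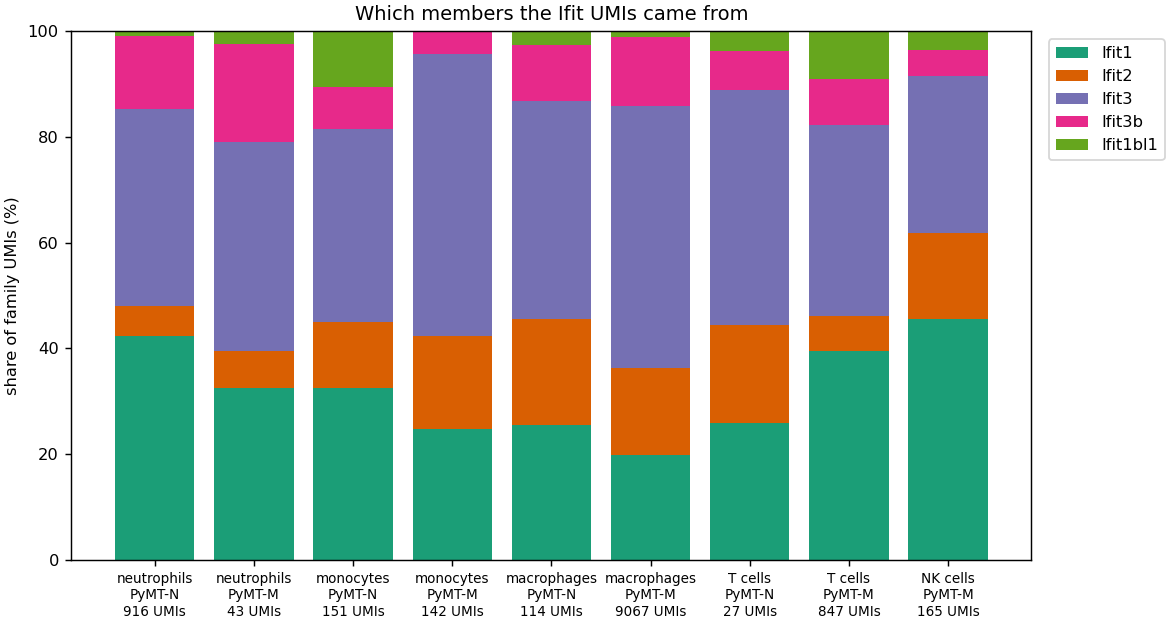
Stacked bars of the percentage of the family's UMIs that came from each member, by class and tumour, for the 9 classes and tumours with at least 27 family UMIs; the number of UMIs stands under each bar. Ifit1 takes 42.2% in PyMT-N neutrophils and 39.4% in PyMT-M T cells, against 19.9% in PyMT-M macrophages, where Ifit3 takes 49.7%.

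**Figure D5:**
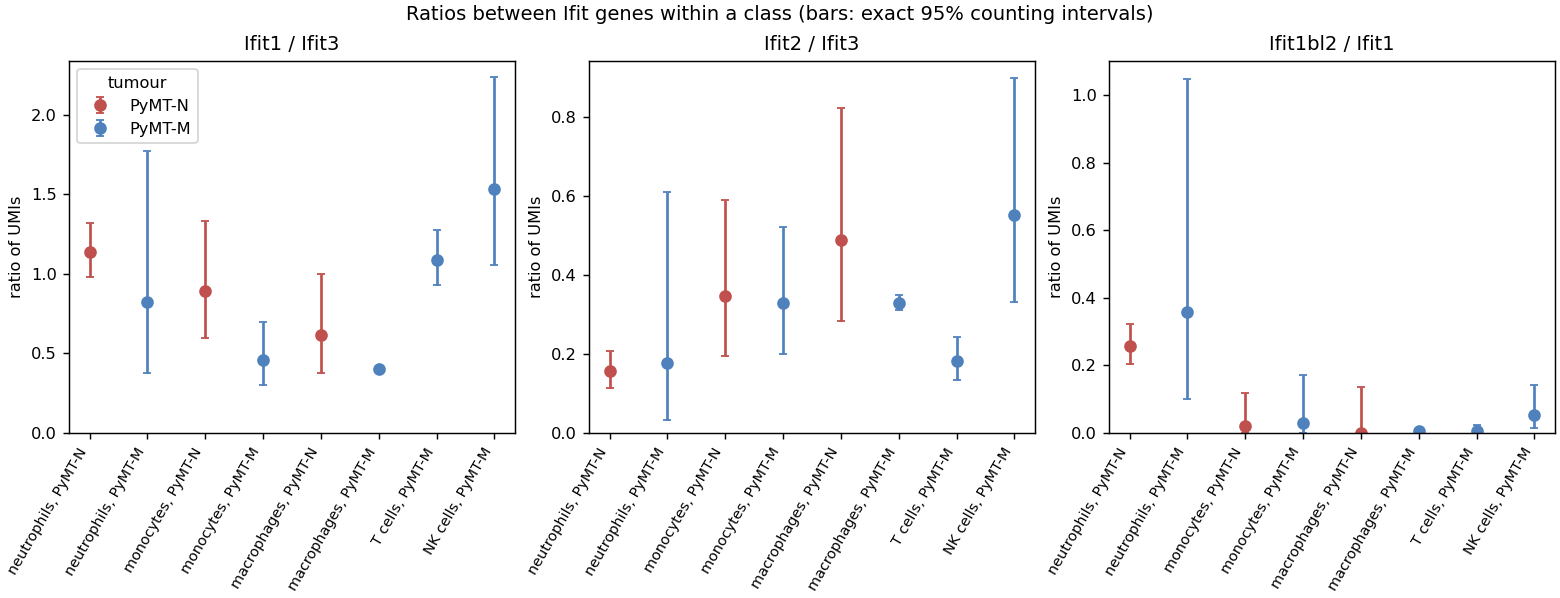
Ratios of UMIs between Ifit genes within a class, on linear axes, with PyMT-N in red and PyMT-M in blue and bars as exact 95% counting intervals. Ifit1 over Ifit3 lies above 1 in PyMT-N neutrophils and in PyMT-M T and NK cells and at 0.40 in PyMT-M macrophages. Ifit1bl2 over Ifit1 lies at 0.26 and 0.36 in neutrophils of PyMT-N and PyMT-M and at most 0.05 in the other classes shown.

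Within classes, cells were divided by the UMIs of fixed marker lists after thinning, a cell being high from the 75th percentile of its class and from at least 2 UMIs (1 for T cells). Each list is a range and not a cell type. PyMT-N neutrophils high in Siglecf, Ccl3 and Ccl4, genes of tumour-resident neutrophils, held 195 CPM of Ifit (175 to 217) against 110 CPM (101 to 120) in the rest, a log2 ratio of 0.82 (0.63 to 1.02), or 0.72 without the top cell of each. The share of positive cells was close, at 4.58% and 4.28%. Those high in Ngp, Camp, Ltf, Cd177 and Lcn2, granule genes of immature neutrophils, held 108 CPM against 141 CPM in the rest (log2 ratio -0.38, -0.62 to -0.16), while their share of positive cells was 5.18% against 4.14%. For Hilpda, Vegfa and Ndrg1, genes induced by low oxygen (140 CPM against 128 CPM), the interval included 0.

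Cells high in antigen-presenting genes held higher Ifit sums in PyMT-N, from few positive cells. Macrophages high in H2-Aa, H2-Ab1, H2-Eb1 and Cd74, genes of MHC class II presentation, held 62.1 CPM (47.0 to 80.4) against 24.3 CPM (18.4 to 31.4) in the rest in PyMT-N, but 35.4 against 17.6 CPM without the top cell of each. The 57 UMIs of the high PyMT-N macrophages lay in 11 cells, 25 of them in 1 cell. After thinning, 2.65% of the high and 1.59% of the other PyMT-N macrophages were positive. Median depths before thinning were 5895 and 4369 UMIs. In PyMT-M the high macrophages held 333 CPM against 278 CPM. Monocytes high in these genes held 213 CPM against 76.6 CPM in PyMT-N, from 14 positive cells, and 198 CPM against 122 CPM in PyMT-M. Without the top cells the values were 124 and 44.4 CPM in PyMT-N and 124 and 89.0 CPM in PyMT-M. The 38 PyMT-N macrophages high in the protease genes Ctsk and Mmp12 held 0 Ifit UMIs, with an upper limit of 17.1 CPM, against 37.3 CPM in the rest. The rest stood at 29.3 CPM without its top cell. Only 37 of its 553 cells held an Ifit UMI, so 38 cells are too few to read an absence.

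PyMT-M T cells varied widely among themselves. Those high in Cd8a and Cd8b1, the coreceptor of cytotoxic T cells, held 584 CPM of Ifit (527 to 646) against 223 CPM (204 to 245) in the rest, a log2 ratio of 1.38, or 1.22 without the top cell of each. Those with Foxp3, Il2ra or Ctla4, genes of regulatory T cells, held 572 CPM (479 to 679) against 285 CPM (265 to 307). Cells with Trdc or Tcrg-C1, of the gamma-delta receptor, held 218 CPM against 321 CPM. Cells with Mki67, Top2a or Stmn1, genes of dividing cells, held 119 CPM (97.1 to 145) against 392 CPM (364 to 421), at median depths of 7576 and 3686 UMIs. Dividing NK cells of PyMT-M held 1 Ifit UMI in 36 cells (2.62 CPM) against 70.2 CPM in the rest. In PyMT-N too few T cells with Ifit were found to divide them.

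The other genes of the interferon pathway were read from lists, with the rule of 2-fold used above. Interferons themselves were hardly seen: in neutrophils and monocytes of both tumours 0 UMIs of the 8 listed genes were counted. Ifng, the interferon of T and NK cells, stood at 25.8 CPM in PyMT-N, against 50.4 CPM in PyMT-M T cells, and at 91.1 and 32.0 CPM in NK cells, PyMT-N before PyMT-M. Of 7 receptor and kinase genes measured in macrophages, 0 passed 2-fold towards PyMT-N and 1 towards PyMT-M, beside 3.33% and 8.82% of all genes. That 1 was Ifngr2 (126 CPM in PyMT-N, 314 CPM in PyMT-M). Ifnar2, a chain of the type I interferon receptor, stood at 272 CPM in PyMT-N, against 329 CPM in PyMT-M macrophages.

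Sensors of nucleic acids passed 2-fold towards PyMT-M for 6 of 10 genes in macrophages, led by the RNA sensor Ifih1 (11.5 CPM in PyMT-N, 48.4 CPM in PyMT-M), and for 2 of 7 in T cells, with 0 towards PyMT-N in either. Transcription factors did so for 5 of 8 genes in macrophages and 5 of 8 in T cells, again with 0 towards PyMT-N. Of all genes 8.82% in macrophages and 10.3% in T cells passed towards PyMT-M. In neutrophils 1 of 7 sensors passed towards PyMT-N and 2 towards PyMT-M, beside 33.5% and 14.1% of all genes. The sensor towards PyMT-N had 0 UMIs in PyMT-M neutrophils, and 1 of the 2 towards PyMT-M had 1 UMI there. The intervals of both these log2 ratios include 0. Irf7, which drives interferon genes, stood at 103 CPM in PyMT-N, against 469 CPM in PyMT-M macrophages (log2 ratio -2.18). Neutrophils held 168 CPM of Irf7 in PyMT-N, against 429 CPM in PyMT-M.

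The 44 other type I interferon-stimulated genes in the files also leaned to PyMT-M in macrophages, T cells and neutrophils, with smaller median ratios. Among 43 measured in macrophages 1 passed 2-fold towards PyMT-N and 27 towards PyMT-M. The median of their log2 ratios was -1.33, beside -2.61 for the Ifit members and -0.19 for all genes. T cells gave 0 and 26 of 36, with medians of -1.34, -2.66 and -0.12. Neutrophils gave 0 and 20 of 37, with medians of -1.09, -2.05 and 0.16. The neutrophil values rest on 49 PyMT-M cells and include the cell that held 19 of their 43 Ifit UMIs. Without that cell 1 of 4 Ifit members passed 2-fold towards PyMT-M, and the other genes were not recounted. Monocytes gave 1 and 6 of 42, with medians of -0.25, -0.78 and -0.10. The -0.78 covers only the 3 measured Ifit members, and the log2 ratio of the family sum in monocytes was -0.34. The members under 20 UMIs leaned to PyMT-N, Ifit1bl1 at 3.72 (0 UMIs in PyMT-M) and Ifit3b at 0.50. The monocyte median therefore does not set the family apart from the other genes. NK cells gave 0 and 15 of 34, beside 6.1% and 20% of all genes towards PyMT-N and PyMT-M. Dendritic cells gave 1 and 5 of 17, beside 5.89% and 11.1%, and B cells 0 and 0 of 6, beside 6.05% and 9.92%. Isg15 stood at 66.4 CPM in PyMT-N, against 461 CPM in PyMT-M macrophages (log2 ratio -2.77). Ifi27l2a, the most abundant of the list there, did not follow, at 1722 CPM in PyMT-N, against 1533 CPM in PyMT-M macrophages.

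Genes tied mainly to interferon gamma passed 2-fold towards PyMT-M for 8 of 14 measured in macrophages, 11 of 12 in T cells, 6 of 9 in neutrophils and 1 of 11 in monocytes, beside 8.82%, 10.3%, 14.1% and 4.87% of all genes. Towards PyMT-N 1 of 9 passed in neutrophils and 0 in the other 3 classes. That 1 gene had 0 UMIs in PyMT-M neutrophils, and the interval of its log2 ratio includes 0. The neutrophil counts again rest on 49 PyMT-M cells. Cxcl9, a chemokine for T cells, stood at 2.43 CPM in PyMT-N, against 64.8 CPM in PyMT-M macrophages (log2 ratio -4.26). Cxcl10, of the same chemokine group, stood at 30.3 and 161 CPM in macrophages, 30.6 and 239 CPM in neutrophils, 12 and 112 CPM in T cells, and 112 and 275 CPM in monocytes, PyMT-N before PyMT-M.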

How the data were processed

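Cells of 2 libraries, 1 per tumour line, were read as raw UMI counts per gene and barcode, as the authors deposited them, with no normalisation. Per the file headers, software version 3.1.0 wrote them. The submitters' processing notes name Cell Ranger, Seurat and build mm10, without tool versions or an annotation release. The lowest deposited barcode held 500 UMIs in PyMT-N and 501 in PyMT-M.

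The members, marker lists and gene lists were chosen with earlier results of these data known. Symbols shared by several identifiers were summed. Barcodes under 200 genes or over 10% mitochondrial UMIs were dropped, 26 in PyMT-N and 119 in PyMT-M. A cell took the class with the highest mean log2(1 + UMIs per 10000) over its markers, given at least 3 detected markers and a next class under 0.6 of it, and was otherwise left out as mixed or unassigned. Doublets were not removed from the values reported. Scrublet's automatic threshold marked 0 cells in either library, so the alternative removed the highest scores, 202 PyMT-N and 442 PyMT-M cells.

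Class sums were given as CPM with exact Poisson intervals, ratios with exact conditional binomial intervals and shares with exact Clopper-Pearson intervals, all at 95%, covering counting error only. UMIs of a cell are not independent. Named genes of a list were those with the 2 highest levels and the 2 largest ratios in a class, leaving out of the text genes at 0 or under the floor of 3 UMIs. Genes like the family were the 10 with the highest Pearson r of log2 values, among genes with 100 UMIs (points) or seen in 5% of cells. The ratio and interval calculations were run on simulated Poisson counts of class sums. Those counts lack the clumping of UMIs in single cells, so that run cannot show how the intervals hold under it. Gene positions come from the GENCODE annotation of GRCm38 and promoters from RefSeq. Python 3.11.15, numpy 2.4.6, scipy 1.17.1, pandas 2.3.3, scanpy 1.11.5, scikit-learn 1.9.0, leidenalg 0.10.2 and matplotlib 3.10.9 were used. Alternatives covered scaling, pseudocount, depth, mitochondrial share, doublets, the class rule and leaving out the PyMT-M neutrophil with the most family UMIs. Leaving out such a cell in each library and class was chosen after seeing the data. Some genes and a marker list are not reported here.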

Additional observations from a re-analysis of the deposited data

Results flagged for a closer look

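Ifit1bl1 in monocytes went the opposite way to Ifit1bl1 in macrophages and T cells. Its log2 ratio of PyMT-N over PyMT-M was 3.72 in monocytes (16 UMIs in 5 PyMT-N cells, 0 UMIs in PyMT-M), against -1.16 in macrophages and -3.40 in T cells. The difference between classes was not tested. Without the PyMT-N monocyte leading in family UMIs 12 UMIs remained there, and 8 without the one leading in Ifit1bl1. The 3.72 depends on the pseudocount, and the level against the floor of 3 UMIs is given with the results.

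Ifit1bl2, a gene of the same locus outside the members, was read in neutrophils above all. PyMT-N neutrophils held 100 UMIs of it in 89 of 3299 cells (14.5 CPM, 11.8 to 17.6) and PyMT-M neutrophils 5 UMIs in 5 of 49 cells (59.7 CPM, 19.4 to 139). PyMT-M macrophages held 7 UMIs in 6 of 5327 cells and PyMT-M NK cells 4 UMIs in 4 of 390 cells. Relative to Ifit1 its UMIs were 0.26 (0.21 to 0.32) in PyMT-N neutrophils and 0.36 (0.10 to 1.05) in PyMT-M neutrophils, against 0.0039 (0.0016 to 0.0080) in PyMT-M macrophages and 0.0060 (0.0007 to 0.0218) in PyMT-M T cells. Both genes start from the same short stretch of promoter in opposite directions, and 7.30% of stretches in the first 500 bases of Ifit1bl2 are also in Ifit1.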

How the results depend on the processing

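No paired analysis was possible because each tumour line gave 1 library. Of 58 alternatives for the family level, 50 stayed within the counting interval, 8 moved beyond it and 0 changed direction. All 38 alternatives for single members, which covered the pseudocount and the stricter class rule, stayed within it. Without the PyMT-M neutrophil that held the most family UMIs, the neutrophil log2 ratio of Ifit3 was -0.96, outside its interval of -2.74 to -1.24. The neutrophil log2 ratio of -1.95 was -1.19 over cells with at least 1000 UMIs, -1.21 without the cell holding the most family UMIs in each library and -1.12 without that PyMT-M cell. The leading PyMT-M neutrophil has under 1000 UMIs, so the first of these also leaves it out. With classes from Leiden clusters the ratio was -1.19 in monocytes and -3.47 in macrophages. Without the leading cells it was -3.36 in macrophages and -5.72 in NK cells, where 0 PyMT-N UMIs then remained. In B cells, with 2 PyMT-N and 3 PyMT-M UMIs in all, the log2 ratio of -0.62 had an interval of -4.23 to 2.48. At a mitochondrial share of at most 5% it was -5.32, the cause not tested. With so few UMIs the loss of single UMIs moves this ratio widely, so no effect of mitochondrial share can be read from it. Median-ratio scaling placed the median of all genes at -0.20 in macrophages, -0.15 in T cells and -0.17 in NK cells on the log2 scale, far less than the family's ratios.

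Of 28 alternatives for the Ifit-positive share, 8 moved beyond the interval. The difference in percentage points, PyMT-N minus PyMT-M, was -4.76 in monocytes, but 1.00 when thinned to 500 UMIs and 1.55 when 2 UMIs were required, so no direction can be read there. In macrophages it was -13.7, and -8.12 thinned to 500 UMIs, -28.9 not thinned and -5.54 with 2 UMIs required. In T cells it was -11.6, and -27.8 not thinned and -5.79 with 2 UMIs. In NK cells it was -4.66, and -10.2 not thinned. These shares depend on depth by their construction. Few cells limit PyMT-N NK cells, B cells and dendritic cells, where 2 UMIs of the family were counted in each class.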
